A study of Mus musculus with 38 samples.

Results

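Tadys and Tterm are 2 subsets of CD8+ T cells sorted from B16-OVA tumours of old mice, and this comparison asks how their open chromatin differed. Tadys is the label given to cells without Slamf6 and without Tim-3 on their surface, which the labels also call age-associated dysfunctional. Tterm is the label for terminally exhausted cells, without Slamf6 and with Tim-3. The comparison rests on 5 of the 38 libraries of the series: 2 Tadys libraries and 3 Tterm libraries, chosen by subset, age and origin of the cells alone. All 5 came from wild-type C57BL/6J mice aged 64 to 68 weeks and were made by ATAC-seq, in which a transposase cuts accessible DNA. They carry the same label for sequencing batches, which names batches 1 and 2 together, so batches could not be separated among them. The mice bore B16-OVA tumours, a melanoma line engineered to carry ovalbumin, and cells were taken on day 15 after inoculation. The series' design text states that sorted cells were pooled into independent replicates of 5000 to 50000 cells, so a library is a pool and not 1 animal. Further groups of the same table, sorted from B16-OVA tumours of wild-type mice, serve as landmarks: 3 libraries of aged Tprog, the progenitor exhausted cells with Slamf6 and without Tim-3, then 4 of young Tprog and 5 of young Tterm, whose mice were 10 to 12 weeks old.

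In chronic stimulation, CD8 T cells that keep the transcription factor TCF-1, the product of Tcf7, retain the capacity to divide and to renew the responding pool. As they differentiate towards terminal exhaustion they lose TCF-1, gain inhibitory receptors such as PD-1 and Tim-3, and carry opened chromatin at genes of cytotoxicity and tissue retention. The cells compared here both lack Slamf6, a surface marker that accompanies TCF-1, and are separated by the presence of Tim-3 alone.

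Each value is the number of reads in a peak divided by a size factor of the library, called normalized reads here, and each difference is Tadys minus aged Tterm on the scale of log2(normalized reads + 1). A peak was called at an adjusted p under 0.05 in limma, fitted to all 17 endogenous libraries over the 71756 peaks with a table mean of 10 or more. The peak just inside that limit had a table mean of 10.003, with values of 0 and 0 in Tadys and 7.75, 6.21 and 27.3 in Tterm. The one just outside had a table mean of 9.998, with 32.1 and 13.7 in Tadys and 5.17, 6.90 and 15.7 in Tterm. Coordinates are those of the files, on mm10.

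The promoters below lie inside peaks that were called, and are shown because they belong to genes on which the comparison turns: Tcf7 and Id3, which were more open in Tadys, and Havcr2 (the gene of Tim-3) and Pdcd1 (the gene of PD-1), which were less open. Each is the 250 bases before a RefSeq start in GRCm38.p6, 5′ to 3′ on the strand of the gene. The windows are chr11:52282596-52282845 on the minus strand for Tcf7, chr4:136143572-136143821 on the plus strand for Id3, chr11:46454681-46454930 on the plus strand for Havcr2 and chr1:94052554-94052803 on the minus strand for Pdcd1. Capitals mark letters that match any of 14 motifs named further on.
Tcf7: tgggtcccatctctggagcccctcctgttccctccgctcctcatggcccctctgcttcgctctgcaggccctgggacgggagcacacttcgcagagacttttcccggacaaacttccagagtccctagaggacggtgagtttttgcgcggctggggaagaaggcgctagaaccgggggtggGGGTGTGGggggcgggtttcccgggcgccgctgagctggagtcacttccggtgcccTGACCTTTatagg
Id3: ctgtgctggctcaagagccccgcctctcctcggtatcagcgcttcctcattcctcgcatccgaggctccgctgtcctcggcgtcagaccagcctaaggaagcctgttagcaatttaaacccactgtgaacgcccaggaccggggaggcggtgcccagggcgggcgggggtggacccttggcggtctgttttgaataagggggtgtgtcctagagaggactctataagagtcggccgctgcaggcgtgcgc
Havcr2: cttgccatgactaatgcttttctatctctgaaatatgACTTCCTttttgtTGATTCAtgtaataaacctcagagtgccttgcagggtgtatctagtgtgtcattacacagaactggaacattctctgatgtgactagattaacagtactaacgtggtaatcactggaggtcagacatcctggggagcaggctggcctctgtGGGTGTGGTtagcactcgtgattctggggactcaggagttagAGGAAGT
Pdcd1: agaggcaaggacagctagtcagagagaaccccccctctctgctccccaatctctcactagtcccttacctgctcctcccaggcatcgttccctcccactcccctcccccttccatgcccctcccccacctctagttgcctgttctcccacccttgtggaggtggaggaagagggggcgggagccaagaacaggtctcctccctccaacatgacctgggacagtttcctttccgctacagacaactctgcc
In Tcf7 the capitals are a KLF motif 69 bases before the start and an NR4A motif 13 bases before it. In Havcr2 they are ETS motifs 213 and 7 bases before the start, an AP-1 motif at 200, and a KLF motif at 49 whose letters overlap a RUNX motif at 46. The Id3 and Pdcd1 windows hold none of the 14 strings of letters.

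The gate was visible in the chromatin of Havcr2, while Slamf6, whose protein both groups lack, had no called peak. The Havcr2 promoter peak (chr11:46452527-46456391) held 924 and 947 normalized reads in Tadys, against 1491, 1482 and 1542 in Tterm. Both Tadys libraries were below all 3 Tterm libraries, and the log2 difference was -0.69 (SE 0.13, limma adjusted p = 0.0035). Aged Tprog, which also lack Tim-3, held 561, 601 and 683, and Tadys was higher than aged Tprog by 0.61 (SE 0.13, limma adjusted p = 0.0081). In pools of cells, fewer open cells and less signal per cell cannot be told apart, here or at any peak below. Of the 7 tested peaks of Havcr2, 4 were called lower in Tadys and none higher. Since Tim-3 protein chose the cells, these values check the label and are no finding. None of the 8 peaks of Slamf6 was called, and its promoter peak held 174 and 311 normalized reads in Tadys and 264, 217 and 200 in Tterm. T cell identity was open in both groups: no peak of Cd3e, Cd3g, Cd3d, Cd8a or Cd8b1 was called, and the promoter peak of Cd3e held 1044 and 1273 normalized reads in Tadys and 1268, 1372 and 1271 in Tterm. Cd2, an adhesion receptor of T and NK cells, had 1 peak called higher and 3 called lower among 17.

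The 2 Tadys libraries stood apart from each other as much as from Tterm. Across the tested peaks their log2 values correlated at r = 0.86, while pairs of Tterm libraries ran from 0.93 to 0.95 and pairs of Tadys with Tterm from 0.85 to 0.91. These are correlations across peaks, which are not independent. The Tadys libraries were also the shallower ones, at 8514962 and 12106936 reads in peaks, against 22836984, 26905264 and 22269906 in Tterm. In the Tadys replicate 1 library, 134 peaks had no read although the median of the other libraries was 30 or more normalized reads, in the Tadys replicate 2 library there were 12 such peaks, and in the Tterm libraries 0, 0 and 1. The aged Tprog libraries had 84, 1 and 2 such peaks, and the young libraries from 0 to 15. Aged Tprog replicate 1, with 84, was the shallowest endogenous library, at 4635804 reads in peaks. The part of depth and of these gaps in the differences was not tested beyond leaving out each library. Results are therefore given with how they stood when either Tadys library was left out.

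Of the peaks tested, 1481 were called higher in Tadys than in aged Tterm (2.06%) and 3037 lower (4.23%), or 6.3% in either direction. The median difference over all peaks was -0.03. The peaks called higher differed by a median of 1.50 on the log2 scale, and those called lower by -0.93. Called peaks whose libraries did not overlap between groups numbered 1477 of the higher and 3003 of the lower ones, beside 36.8% of all tested peaks. With all libraries scaled to equal totals the calls were 1918 higher and 2166 lower, which moved the share of higher calls to 47.0%, against 32.8% as fitted.
At least 1 of the counts moved by more than 1.5 times when any single library other than Tterm replicate 2 was left out. Without Tadys replicate 1 there were 629 higher and 1402 lower, and without Tadys replicate 2 there were 916 higher and 4383 lower. Without Tterm replicate 1 the counts were 686 and 1402, and without Tterm replicate 3 they were 564 and 1149, higher and lower. Without Tterm replicate 2 they were 1175 and 2372. A stricter set was called in the full fit and again with either Tadys library alone, in the same direction: 193 higher peaks (0.269% of those tested) and 405 lower peaks (0.564%). The bars of peaks called under each setting show these counts together.

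**Figure D1:**
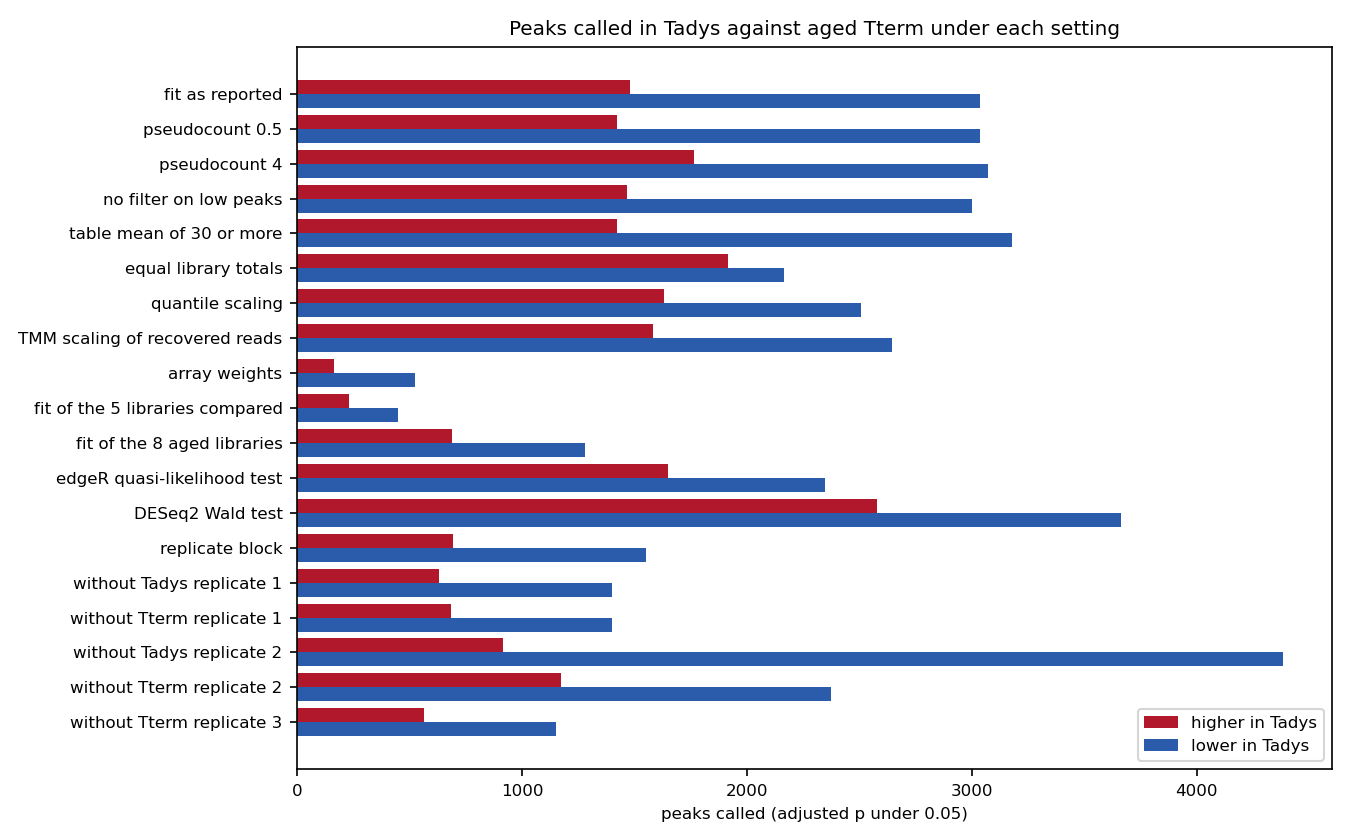
Horizontal bars give the number of peaks called higher (red) and lower (blue) in Tadys than in aged Tterm, with 1 row for the fit as reported and 1 for each other setting. Lower calls exceed higher calls in every row. Higher calls are fewest with array weights (166 higher and 524 lower) and most with DESeq2 (2579 higher and 3664 lower). Lower calls are fewest in the fit of the 5 libraries compared (231 higher and 447 lower) and most without Tadys replicate 2.

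Tcf7, the gene of TCF-1, was more open in Tadys along the gene and at its start. A peak inside the gene (chr11:52273730-52276115) held 601 and 661 normalized reads in Tadys, against 195, 206 and 223 in Tterm. The groups did not overlap, the difference was 1.60 (SE 0.19, limma adjusted p = 4.5e-05), and the call held in all 18 alternatives. Aged Tprog held 1076, 964 and 1208 at that peak, so Tadys lay between Tterm and Tprog, 0.77 lower on the log2 scale than Tprog (SE 0.19, limma adjusted p = 0.014).
The peak at the Tcf7 start (chr11:52280792-52284473), which holds the promoter printed above, had 681 and 570 normalized reads in Tadys and 270, 312 and 307 in Tterm. Its difference was 1.07 (SE 0.19, limma adjusted p = 0.0015). In all, 5 of the 12 tested peaks of Tcf7 were called higher and none lower, 3 of them with either Tadys library alone.

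Id3, an inhibitor of E protein transcription factors that marks progenitor cells, followed the same direction. A peak 20 kb from its start (chr4:136122877-136123895) held 202 and 235 normalized reads in Tadys, against 53.4, 63.5 and 66.3 in Tterm. The difference was 1.83 (SE 0.29, limma adjusted p = 8.0e-04), and aged Tprog was at 219, 207 and 236, within the range of the Tadys values or next to it. The promoter peak of Id3 (chr4:136143484-136144992) held 615 and 392 in Tadys and 261, 224 and 217 in Tterm, a difference of 1.07 (SE 0.19, limma adjusted p = 0.0018) that missed the threshold without Tadys replicate 1 (adjusted p = 0.062).

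The list of naive and quiescence genes had more peaks called higher than lower in Tadys: 29 of its 244 peaks were higher (11.9%, beside 2.06% of all tested) and 7 lower (2.87%, beside 4.23%). The median difference over its peaks was 0.16, and 0.36 or 0.04 without Tadys replicate 1 or replicate 2. A higher peak was found at 9 of its 15 genes: Actn1, Bach2, Ccr7, Dapl1, Foxo1, Foxp1, Klf2, S1pr1 and Tcf7. Over all 16567 genes with a tested peak, 1044 had a higher one. The list's genes hold more peaks each, 244 at 15 genes, beside 67021 peaks at the 16567. Most of the list's 29 higher peaks lost the call with 1 or the other Tadys library alone, as did most of all 1481 peaks called higher.
Foxp1, a factor that keeps T cells quiescent, had 5 of 48 peaks called higher and 1 lower. Its leading peak (chr6:99485225-99486781) held 363 and 240.0 normalized reads in Tadys, against 118, 75.2 and 110 in Tterm, and the difference was 1.56 (SE 0.26, limma adjusted p = 0.0012). Actn1, which encodes the actin cross-linker alpha-actinin, had 1 of 17 peaks called higher. That peak, between genes (chr12:80271817-80273816), held 214 and 240.0 in Tadys and 96.4, 66.9 and 79.5 in Tterm. Its difference was 1.49 (SE 0.24, limma adjusted p = 8.4e-04). The call at both peaks held in all 18 alternatives.
Ccr7, the receptor that guides T cells into lymph nodes, had 5 of 11 peaks called higher, none of them with each Tadys library alone. Its leading peak (chr11:99166217-99166833) held 192 and 270 normalized reads in Tadys and 150, 82.1 and 81.2 in Tterm, and its adjusted p was 0.012 in the full fit and 0.089 without Tadys replicate 2, and 0.060 without Tterm replicate 3. Bach2, a repressor that restrains effector differentiation, had 6 of 43 peaks called higher, again none with each Tadys library alone. The naive genes were not uniform: Il7r, with 5 tested peaks, had none called, and Lef1, the partner factor of TCF-1, had 2 of 20 called lower.

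**Figure D2:**
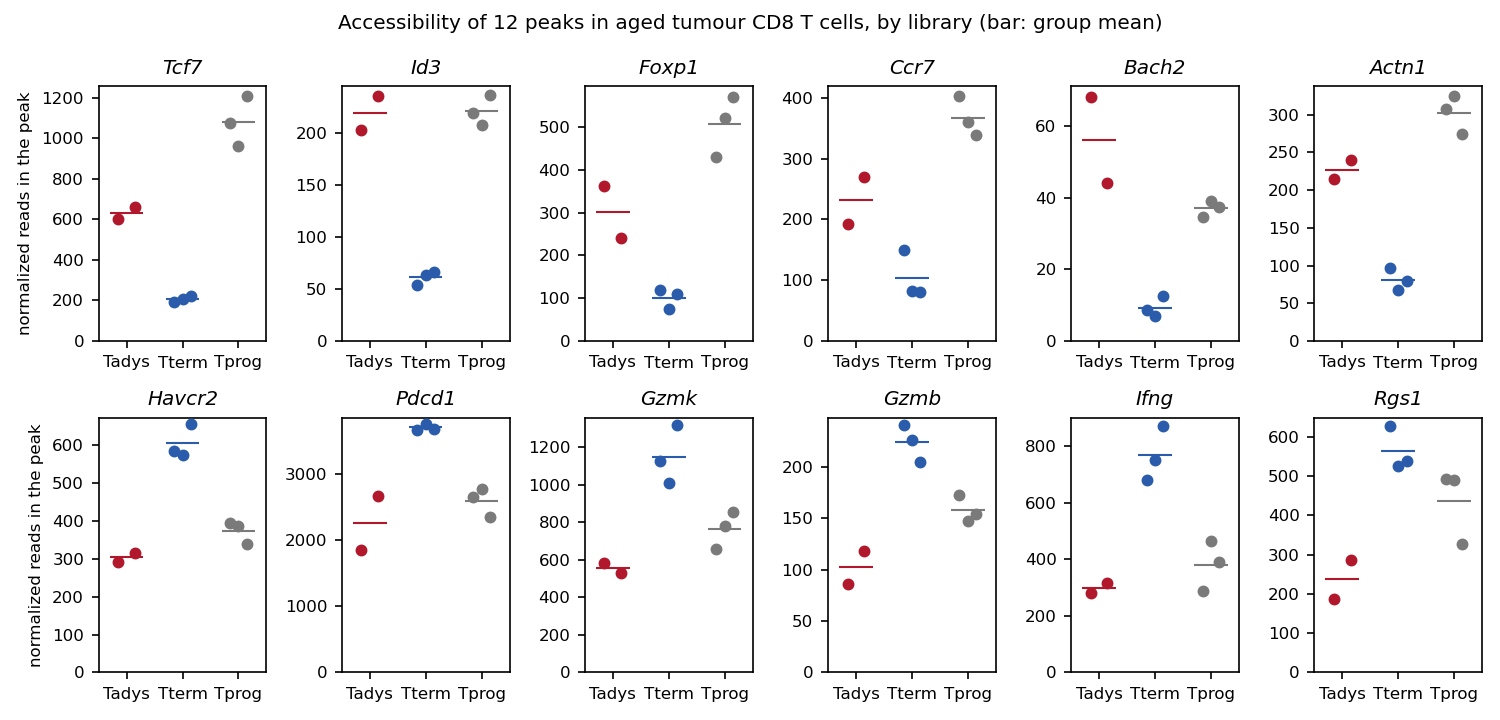
Points give normalized reads of each library at the peak of lowest adjusted p for 12 genes, on linear axes from 0, in Tadys (red, n = 2), aged Tterm (blue, n = 3) and aged Tprog (grey, n = 3), with bars at group means. In the top row Tadys lies above Tterm, as at Tcf7 with 601 and 661 against 195 to 223, and in the bottom row below it, as at Gzmk with 581 and 527 against 1008 to 1318.

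The progenitor exhausted list, which shares Tcf7, Bach2, Ccr7, Foxp1, Lef1, Satb1 and Il7r among others with the naive list, had 26 of 293 peaks called higher (8.87%, beside 2.06%) and 13 lower (4.44%, beside 4.23%). Its median difference was 0.13, and it turned to -0.09 without Tadys replicate 2. Cxcr5, Il6ra and Tnfsf8 were the other genes with a higher peak besides Id3. Chemokine receptors and trafficking genes had 9 of 115 peaks called higher (7.83%, beside 2.06%) and 3 lower (2.61%, beside 4.23%), with a median of 0.05 that was -0.13 without Tadys replicate 2. In that list Ccr6, a receptor for the chemokine Ccl20, held 315 and 339 normalized reads in Tadys and 133, 122 and 87.0 in Tterm at a peak near the gene's end or start (chr17:8233228-8235188), a difference of 1.53 (SE 0.26, limma adjusted p = 0.0014).

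Genes of terminal exhaustion had more peaks called lower than higher in Tadys. Their list had 25 of 251 peaks lower (9.96%, beside 4.23%) and 3 higher (1.20%, beside 2.06%), with a median of -0.25 that stayed between -0.33 and -0.16 over the alternatives. The lower peaks belonged to 13 of 23 genes, Havcr2 among them, which the gate selected. Over all 16567 genes with a tested peak 2096 had a lower one, though the list's genes hold more peaks each, 251 at 23. The median includes the Havcr2 peaks.
Pdcd1 had 1 of 9 peaks called, at its start (chr1:94051042-94056803). It held 1850 and 2660 normalized reads in Tadys, against 3655, 3750 and 3679 in Tterm and 2640, 2764 and 2337 in aged Tprog. The difference from Tterm was -0.74 (SE 0.13, limma adjusted p = 0.0020), both Tadys libraries were below all Tterm libraries, and without Tadys replicate 1 it was -0.47 (adjusted p = 0.078).
Entpd1, the gene of the nucleotidase CD39, had 2 of 12 peaks called lower. At the stronger one it held 517 and 761 in Tadys and 1008, 1001 and 925 in Tterm, a difference of -0.64 (SE 0.18, limma adjusted p = 0.034), and the call was lost without any 1 of Tadys replicate 1 (adjusted p = 0.36) and Tterm replicates 1, 2 and 3 (adjusted p = 0.094, 0.072 and 0.069). Tox, a factor that shapes the exhausted state, had none of its 49 tested peaks called. At its peak of lowest p, inside the gene, Tadys held 72.1 and 63.8 and Tterm 15.5, 27.6 and 20.7, with an adjusted p of 0.084.

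Inhibitory receptor genes were split. Of their 110 peaks, 13 were called lower (11.8%, beside 4.23% of all) and 5 higher (4.55%, beside 2.06%), with a median of -0.24. Of the 13 lower peaks, 4 were those of Havcr2, which the gate selected. The lower ones lay at Cd200r1, Cd244a, Cd96, Ctla4, Havcr2, Klrc1, Pdcd1 and Tigit, and the higher ones at Btla, Cd101 and Lair1. Cd200r1, an inhibitory receptor for CD200, held 50.1 and 82.0 normalized reads in Tadys and 208, 201 and 234 in Tterm at a peak inside the gene (chr16:44778465-44779698), a difference of -1.72 (SE 0.31, limma adjusted p = 0.0020). Btla, a receptor for HVEM that naive and progenitor cells carry, had 3 of 11 peaks called higher. Its strongest, inside the gene, held 226 and 307 in Tadys and 98.2, 76.6 and 96.1 in Tterm, with a difference of 1.54 (SE 0.28, limma adjusted p = 0.0022). Lag3, with 4 tested peaks, had none called.

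Cytotoxic and effector genes had the highest share of lower calls among the 36 lists: 17 of 94 peaks were lower (18.1%, beside 4.23%) and 2 higher (2.13%, beside 2.06%). The median was -0.45, and between -0.59 and -0.30 over the alternatives. The lower peaks belonged to Fasl, Gzmb, Gzmk, Ifng and Serpinb9, while Prf1, the gene of perforin, had none of 8 peaks called.
Gzmk, a granzyme of less differentiated effector cells, held 581 and 527 normalized reads in Tadys at a peak near the gene (chr13:113167960-113170695), against 1124, 1008 and 1318 in Tterm. The groups did not overlap, and the difference was -1.04 (SE 0.15, limma adjusted p = 3.2e-04), called in all 18 alternatives. Aged Tprog held 657, 782 and 857 there.
Gzmb, the main cytotoxic granzyme, had 5 of 9 peaks called lower. Its leading peak (chr14:56281560-56281963) lay between genes and held 86.2 and 119 in Tadys and 240, 226 and 205 in Tterm, a difference of -1.14 (SE 0.23, limma adjusted p = 0.0051). None of the 5 was called with each Tadys library alone, and without Tadys replicate 1 this one had an adjusted p of 0.074.
Ifng, the gene of interferon gamma, had 8 of 27 peaks called lower and 1 higher. The leading peak, 46 kb from the start (chr10:118486139-118488184), held 281 and 316 in Tadys and 681, 751 and 871 in Tterm. The difference was -1.36 (SE 0.19, limma adjusted p = 3.1e-04), and aged Tprog stood at 288, 466 and 389. The peak over the Ifng start held 952 and 1141 in Tadys and 1506, 1446 and 1469 in Tterm, a difference of -0.50 (SE 0.14, limma adjusted p = 0.032, and 0.24 without Tadys replicate 1).

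**Figure D3:**
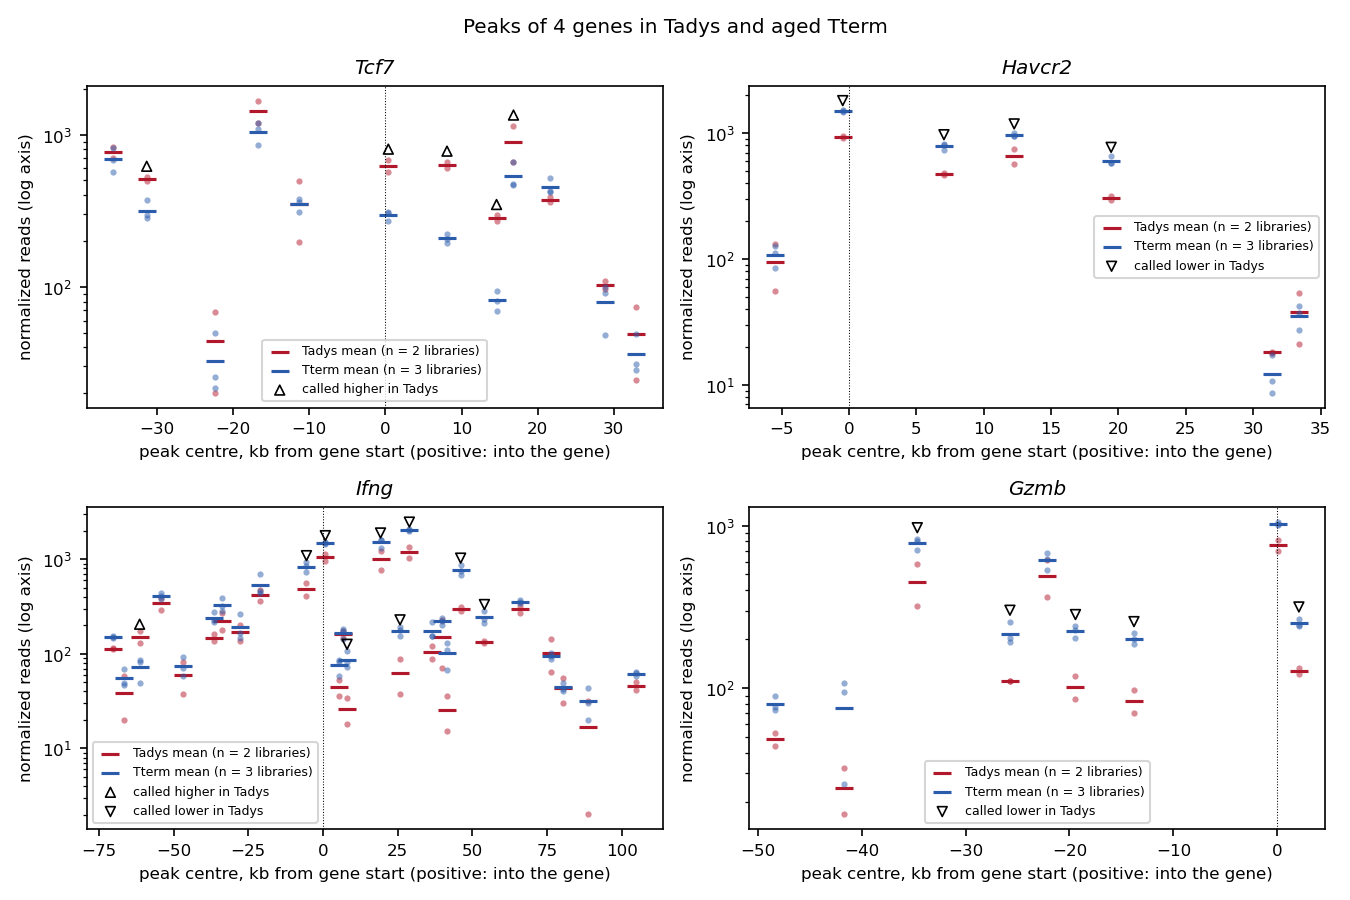
Normalized reads (log axis) at every tested peak of Tcf7, Havcr2, Ifng and Gzmb against the distance of the peak centre from the gene start in kb, with points for single libraries and dashes for the means of Tadys (red) and aged Tterm (blue). Open triangles mark called peaks: 5 of 12 higher at Tcf7, 4 of 7 lower at Havcr2, 8 lower and 1 higher of 27 at Ifng, and 5 of 9 lower at Gzmb.

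Genes of tissue residency and of G protein signalling were among those called lower. The residency list had 20 of 194 peaks lower (10.3%, beside 4.23% of all) and 1 higher (0.515%, beside 2.06%), with a median of -0.28, and the RGS list, regulators that switch off G protein signals, had 12 of 84 lower (14.3%) and 1 higher (1.19%), with a median of -0.28. The lists share Rgs1 and Rgs2. Rgs1, which dampens chemokine receptor signals, had 8 of 20 peaks called lower. Its leading peak (chr1:144300505-144302011) held 188 and 287 normalized reads in Tadys, against 628, 526 and 538 in Tterm, a difference of -1.27 (SE 0.22, limma adjusted p = 0.0016) that was called in all 18 alternatives. Itga1, the alpha chain of a collagen-binding integrin of resident T cells, held 14.0 and 16.7 in Tadys and 64.6, 87.0 and 124 in Tterm at a peak between genes (chr13:115142090-115142798), a difference of -2.46 (SE 0.55, limma adjusted p = 0.0090, and 0.056 without Tadys replicate 1). Prdm1, the gene of Blimp-1, a repressor that drives effector differentiation, had 3 peaks called lower, and the leading one (chr10:44400016-44402424) held 633 and 766 in Tadys, 1207, 1111 and 1226 in Tterm, and 630.2, 703 and 635 in aged Tprog. Its difference from Tterm was -0.76 (SE 0.15, limma adjusted p = 0.0039, and 0.062 without Tadys replicate 1).

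Factor genes related to Tcf7 and Id3 had called peaks in the lower direction. In the list of TCF, Id, E protein and Bcl factors, 22 of 229 peaks were lower (9.61%, beside 4.23%) and 7 higher (3.06%, beside 2.06%), all 7 at Tcf7 and Id3. Ikzf1, the gene of the lymphoid factor Ikaros, had 4 of 28 peaks called lower. Its peak by a RefSeq start inside the gene (chr11:11689826-11690874) held 238 and 210 normalized reads in Tadys. At that peak Tterm held 663, 448 and 591 and aged Tprog 404, 477 and 551. The difference from Tterm was -1.32 (SE 0.19, limma adjusted p = 3.1e-04), and Tadys was also lower than aged Tprog, by -1.08 (SE 0.19, limma adjusted p = 0.0016). Bcl11b, a factor that maintains T cell identity, had 5 of 31 peaks called lower.
T-box, RUNX and KLF factor genes had 21 of 263 peaks lower (7.98%) and 3 higher (1.14%), and their median of -0.11 was 0.04 without Tadys replicate 1. Runx2 carried 10 of those lower peaks among 50 tested, more than any other gene in the table, while Runx3, the factor of cytotoxic lineage choice, had none of 30 called. Eomes, a T-box factor of memory and exhausted cells, held 727 and 743 at its start (chr9:118476539-118479660) in Tadys, against 1350, 976 and 1267 in Tterm, a difference of -0.69 (SE 0.16, limma adjusted p = 0.012) that missed the threshold without Tadys replicate 1 (adjusted p = 0.066), Tterm replicate 1 (0.059) or Tterm replicate 3 (0.053). Of the 13 tested peaks of Eomes, 2 were called lower and 0 higher, with a median difference of 0.03. NFAT and calcineurin genes, the calcium branch of T cell receptor signalling, had 7 of 116 peaks lower (6.03%) and 2 higher (1.72%). Most of these 7 kept the call with either Tadys library alone, unlike most of all 3037 peaks called lower. At Ppp3ca, a catalytic subunit of calcineurin, a peak between genes (chr3:136940745-136942410) held 415 and 662 in Tadys and 1107, 1093 and 1430 in Tterm, a difference of -1.19 (SE 0.19, limma adjusted p = 6.3e-04).

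Other signalling lists varied. The T cell receptor list had 10 of 300 peaks lower (3.33%, beside 4.23%) and 5 higher (1.67%, beside 2.06%). Cytokine receptors and STATs had 15 of 246 lower (6.10%) and 1 higher (0.407%), MAP kinase feedback genes 13 of 160 lower (8.13%) and 1 higher (0.625%), and costimulation genes 12 of 135 lower (8.89%) and 5 higher (3.70%), beside the same shares of all tested peaks. Il6st, the shared signal chain of the interleukin 6 family, had 4 of 16 peaks called lower. Tgfbr2, a chain of the TGF-beta receptor, held 277 and 390.5 normalized reads in Tadys at a peak between genes (chr9:116181222-116182783), against 650, 674 and 736 in Tterm and 323, 292 and 305 in aged Tprog, a difference from Tterm of -1.06 (SE 0.19, limma adjusted p = 0.0016). Csf2, the gene of GM-CSF, stood out among the chemokine and growth factor genes with 3 of 12 peaks called higher, though none with each Tadys library alone. At the leading one (chr11:54239798-54240772) Tadys held 287 and 462, Tterm 139, 182 and 92.8, and aged Tprog 219, 235 and 202. Its difference from Tterm was 1.45 (SE 0.34, limma adjusted p = 0.012), with an adjusted p of 0.10 without Tadys replicate 2 and 0.071 without Tterm replicate 3.
Interferon response genes had 3 of 99 peaks lower (3.03%, beside 4.23%) and 1 higher (1.01%, beside 2.06%). Cell cycle genes had 9 of 106 lower (8.49%) and 2 higher (1.89%), and senescence and DNA damage genes had 8 of 88 lower (9.09%) and none higher. The senescence list includes Cdkn2a, which encodes the cell cycle inhibitor p16 and the p53 activator Arf from separate starts. The peak over its upstream start, that of Arf (chr4:89294216-89296059), held 353 and 435 in Tadys and 815, 649 and 624 in Tterm, a difference of -0.82 (SE 0.19, limma adjusted p = 0.011), with an adjusted p of 0.11 without Tadys replicate 1 and 0.059 without Tterm replicate 1. The peak over its downstream start, that of p16 (chr4:89281759-89283063), held 82.2 and 62.3 in Tadys and 189, 176 and 220 in Tterm, a difference of -1.43 (SE 0.35, limma adjusted p = 0.015). That call was lost without Tadys replicate 2 (adjusted p = 0.073).

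**Figure D4:**
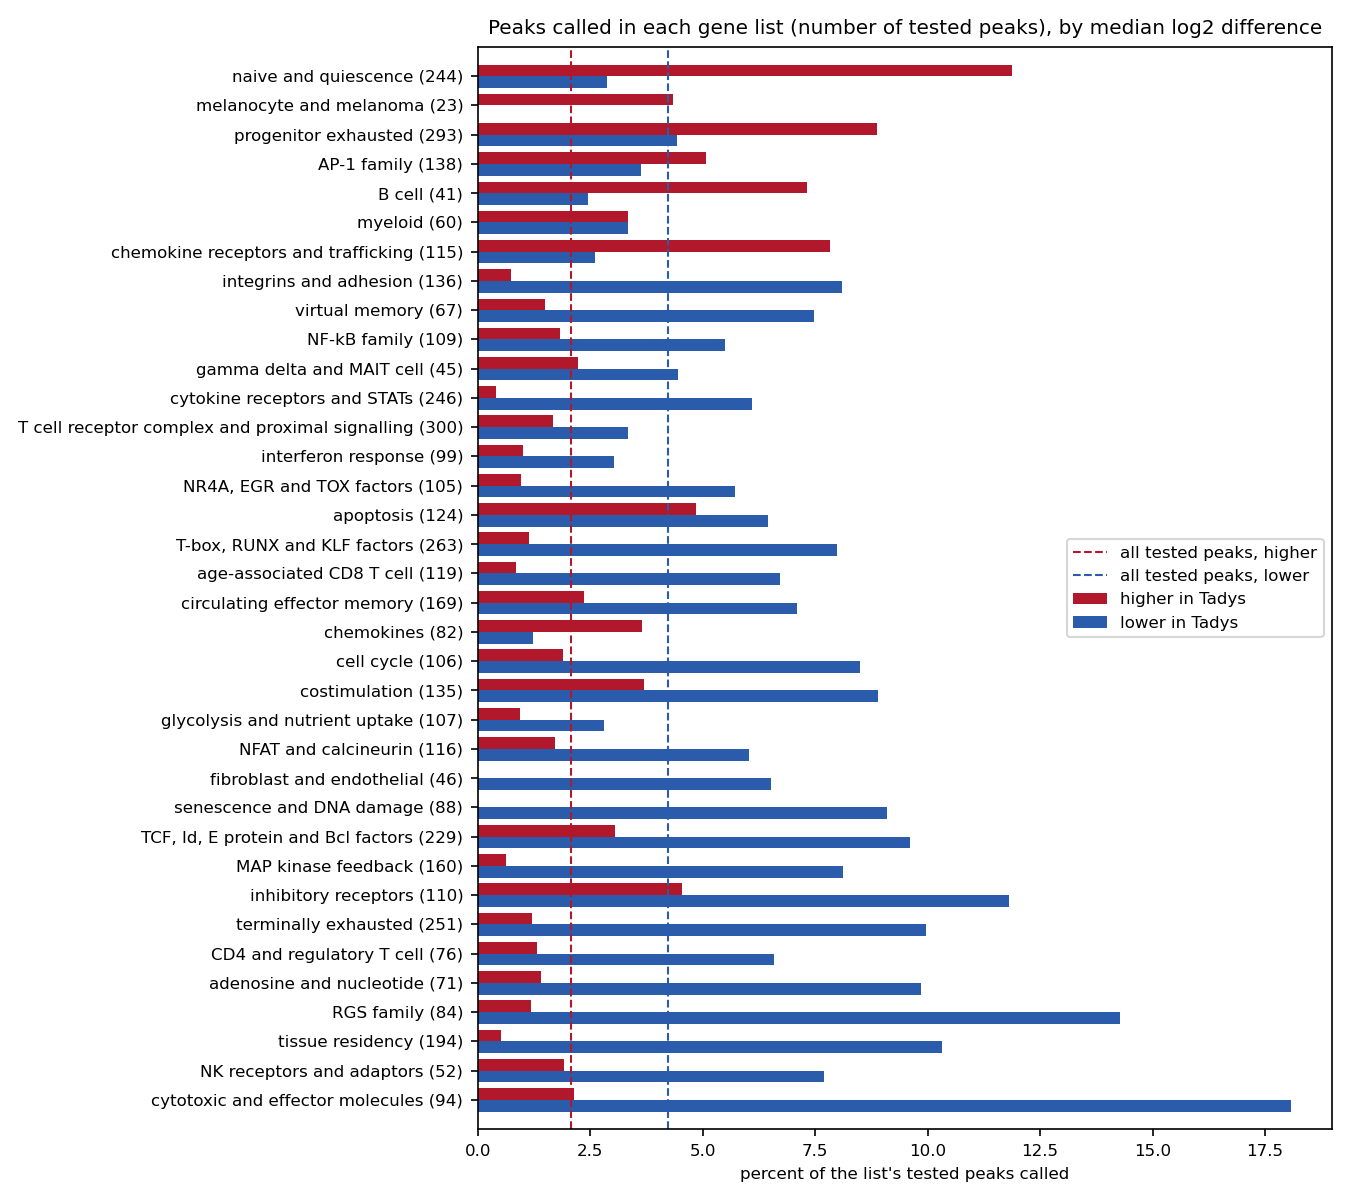
Bars give the percentage of the tested peaks of each of 36 gene lists called higher (red) or lower (blue) in Tadys, with dashed lines at 2.06% and 4.23% for all tested peaks, ordered by the median log2 difference of the list from high (top) to low. Red bars reach furthest for naive and quiescence genes (11.9%) and blue ones for cytotoxic and effector molecules (18.1%).

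Markers of other cell types were summed over each list to see whether they moved with the groups. The B cell list summed to between 3497 and 3856 normalized reads in Tadys and between 3740 and 3849 in Tterm, and the melanocyte list to between 3196 and 3415 in Tadys and between 3079 and 3670 in Tterm. Myeloid genes summed to between 13180 and 15277 in Tadys and between 14586 and 16004 in Tterm. Fibroblast and endothelial genes gave 5915 to 6107 in Tadys and 7011 to 7234 in Tterm, and NK receptor genes 11730 to 12792 in Tadys and 14624 to 15334 in Tterm. CD4 and regulatory T cell genes gave 15461 to 17949 in Tadys and 18944 to 20225 in Tterm, and gamma delta and MAIT cell genes 5076 to 5304 in Tadys and 5681 to 6095 in Tterm. In these last 4 lists both Tadys libraries were below all Tterm libraries, and the range of the sums in the other 3 overlapped. The total of normalized reads over all peaks was also lower in both Tadys libraries than in every Tterm library, narrowly so for Tadys replicate 2. The order of the libraries alone therefore does not set these lists apart from all peaks. No tested peak was nearest to Cd79a, Ms4a1, Tyrp1, Tyr, Foxp3, Lyz2 or Adgre1, so the defining markers of B cells, melanocytes, regulatory T cells and macrophages gave no value here. Cd4, with 2 tested peaks, had none called.
Beside 2.06% higher and 4.23% lower among all tested peaks, B cell genes had 3 of 41 peaks higher (7.32%) and 1 lower (2.44%), myeloid genes 2 of 60 in each direction (3.33%), and melanocyte genes 1 of 23 higher (4.35%) and none lower. NK cell genes had 1 of 52 higher (1.92%) and 4 lower (7.69%), CD4 and regulatory T cell genes 1 of 76 higher (1.32%) and 5 lower (6.58%), gamma delta and MAIT cell genes 1 of 45 higher (2.22%) and 2 lower (4.44%), and fibroblast and endothelial genes 3 of 46 lower (6.52%) and none higher. Their part in the differences above was not tested.

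The peaks with the lowest adjusted p were mostly outside the lists. At Albfm1 (chr5:90594464-90596039) Tadys held 108 and 123 normalized reads and Tterm 443, 429 and 466, a difference of -1.94 (SE 0.20, limma adjusted p = 1.9e-05). A peak at Zfand4, a zinc finger gene, near a RefSeq start inside the gene (chr6:116266244-116267901) held 236 and 201 in Tadys and 688, 741 and 594 in Tterm. Its difference was -1.62 (SE 0.18, limma adjusted p = 1.9e-05). At Lmntd1 (chr6:145373563-145374898) Tadys held 483 and 401 and Tterm 110, 124 and 128, a difference of 1.86 (SE 0.23, limma adjusted p = 6.0e-05). Tadys did not overlap Tterm at any of these 3 peaks, and all 3 were called in all 18 alternatives.
Rps6kc1, which encodes a protein related to ribosomal S6 kinases, differed from these in its level in the other subset. Its peak inside the gene (chr1:190780294-190782067) held 271 and 304 in Tadys, against 45.6, 62.1 and 60.5 in Tterm and 76.9, 74.1 and 106 in aged Tprog. Tadys was higher than Tterm by 2.35 (SE 0.35, limma adjusted p = 3.9e-04) and higher than aged Tprog by 1.75 (SE 0.35, limma adjusted p = 0.0043). At Rbms3, a gene of an RNA-binding protein, the peak called higher (chr9:117399872-117400865) held 174 and 132 in Tadys and 19.8, 11.7 and 13.3 in Tterm, while aged Tprog held 211, 168 and 124.

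The largest differences lay mostly at narrow peaks with few reads in the group with less signal. The 10 largest increases reached 4.16 on the log2 scale, at a peak nearest to no gene within 100 kb (chr3:51081987-51082195) with 38.1 and 38.0 normalized reads in Tadys and 0.861, 2.07 and 0.828 in Tterm, and an adjusted p of 0.0090 in limma that was 0.056 without Tadys replicate 1. The largest decreases included a peak inside Zfp148, a zinc finger factor (chr16:33403973-33404393), with 0 and 6.08 in Tadys and 79.2, 53.8 and 59.6 in Tterm. Its difference was -4.60 as fitted and -3.19 without Tadys replicate 1. Each of the 10 largest decreases named by the rule had no read in Tadys replicate 1, the library with 134 empty peaks described above. The part of those gaps in these decreases was not tested. Among the peaks called lower, 199 had no read in at least 1 Tadys library and 10 had none in both. Among those called higher, 12 had no read in at least 1 Tterm library and none in all 3. One read was worth 2.00 and 1.52 normalized reads in the Tadys libraries and 0.861, 0.690 and 0.828 in the Tterm libraries.

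Peaks called higher lay away from gene starts and ends. Within 1000 bp of a gene's start or end lay 131 of the higher peaks (8.85%) and 760 of the lower ones (25.0%), beside 19.7% of all tested. Between genes lay 43.9% of the higher and 29.3% of the lower peaks, beside 36.6% of all. With a window of 250 bp, 5.81% of higher and 22.1% of lower peaks were near a gene's start or end, beside 16.5% of all. The share of higher peaks near starts and ends was 17.4% with quantile scaling and 12.0% or less in the other alternatives. That of lower peaks was below the 19.7% of all tested in 7 of them: 15.0% with quantile scaling, 15.0% in the fit of the 5 libraries alone, 15.5% without Tterm replicate 1, 19.1% with array weights, 19.1% without Tadys replicate 2, 19.5% with the replicate number as a block and 19.6% without Tadys replicate 1. The position of the lower peaks thus depended on the libraries and the fit.
Over all tested peaks the median difference was -0.12 near gene starts and ends and 0.05 between genes, and the 2 Tadys libraries gave -0.13 and -0.10 near starts and ends when each was set against the Tterm mean. Peaks near starts and ends took up 44.2% and 44.4% of the normalized reads in Tadys and 47.0%, 44.8% and 43.9% in Tterm. The lower peaks were also the broader and stronger ones, with a median width of 1236 bp and a median level over all libraries of 322, beside 1075 bp and 87.6 for the higher peaks and 931 bp and 91.2 for all.

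Called peaks were spread over all chromosomes, unevenly. Higher calls ranged from 1.03% of the tested peaks on chromosome 10 to 2.95% on chromosome 15, and lower calls from 2.15% on chromosome 11 to 6.64% on chromosome 13. Each Tadys library had its median difference from the Tterm mean below 0 on chromosome 13 (-0.12 and -0.08) and above 0 on chromosome 15 (0.14 and 0.06).
Some genes held many called peaks. There were 12 genes with at least 5 higher peaks and 31 with at least 5 lower ones. Asap1, a regulator of the small GTPase Arf, and Rad51b, a DNA repair gene, had 9 higher peaks each, of 32 and 46 tested, and Aff3, a transcription elongation gene, had 8 of 22. Cmip, a signalling adaptor, and Ppm1h, a phosphatase, had 9 lower peaks each, of 40 and 30. Of the 3002 genes with a called peak, 138 had peaks in both directions.

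Aged Tprog was set beside both groups at the called peaks. At the peaks called higher, the median of group means was 138 normalized reads in Tadys, 47.9 in aged Tterm and 115 in aged Tprog. At the peaks called lower it was 211 in Tadys, 400 in aged Tterm and 260 in aged Tprog. The Tadys and Tterm values follow from how the peaks were called, and the comparisons of Tadys and of aged Tprog with aged Tterm share the Tterm libraries, so no test was made between them. Over all tested peaks, Tadys was called higher than aged Tprog at 1871 (2.61%) and lower at 2902 (4.04%), and aged Tterm higher than aged Tprog at 4843 (6.75%) and lower at 3856 (5.37%).
The young endogenous libraries belong to neither group, but they entered the fit that estimated the spread, so the peaks were not called independently of them, and the young calls below use the same estimate. At the peaks called higher in Tadys, young Tprog stood at a median of 110 and young Tterm at 48.4, and at those called lower at 261 and 396. The median difference of young Tprog minus young Tterm was 0.90 at the higher peaks and -0.43 at the lower ones, beside 0.01 over all. Young Tprog was called higher than young Tterm at 847 of the 1481 higher peaks (57.2%, beside 11.3% of all tested) and at 47 of the 3037 lower ones (1.55%). It was called lower at 1575 of the lower peaks (51.9%, beside 14.3% of all) and at 3 of the higher ones (0.203%).

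**Figure D5:**
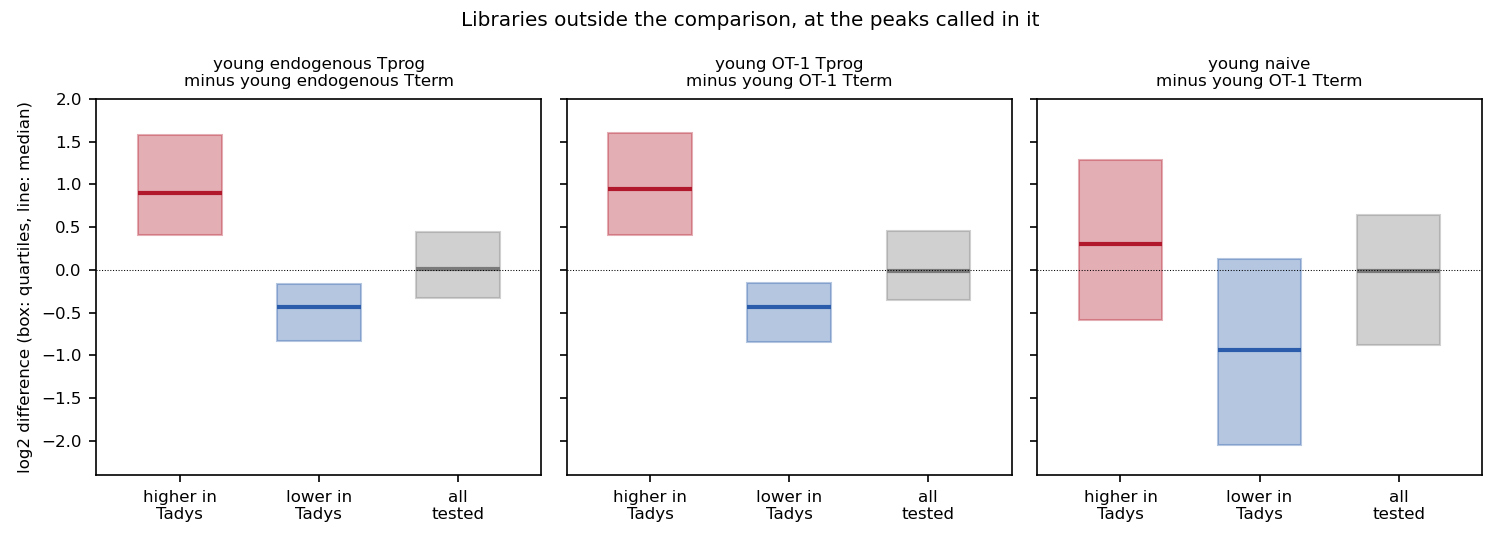
Boxes span the quartiles, with a line at the median, of log2 differences in libraries outside the comparison, at the peaks called higher in Tadys (red), called lower (blue) and all tested (grey). For young endogenous Tprog minus Tterm the medians are 0.90, -0.43 and 0.01.

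Values at 5 peaks show the young levels. At the Tcf7 peak inside the gene, young Tprog averaged 1022 ± 126 normalized reads (SD, n = 4) and young Tterm 210 ± 37.3 (SD, n = 5), next to 601 and 661 in Tadys. At the Id3 peak young Tprog averaged 220.0 ± 33.5 (SD, n = 4) and young Tterm 45.7 ± 13.3 (SD, n = 5). At the Albfm1 peak young Tprog averaged 166 ± 18.5 (SD, n = 4) and young Tterm 529 ± 40.1 (SD, n = 5). At the Gzmk peak young Tprog averaged 703 ± 48.2 (SD, n = 4) and young Tterm 1486 ± 77.1 (SD, n = 5). At the Rps6kc1 peak young Tprog averaged 133 ± 49.7 (SD, n = 4) and young Tterm 85.5 ± 16.1 (SD, n = 5), both below the 271 and 304 of Tadys.
The series also holds OT-1 cells, transferred T cells with a receptor for an ovalbumin peptide, and splenic naive cells, in a table normalized apart. Peaks of the tables were matched where they shared at least 50% of the shorter one, which paired 1421 of the higher and 2978 of the lower peaks. Among libraries of 1 sequencing label, young OT-1 Tprog (n = 2) minus young OT-1 Tterm (n = 5) had a median difference of 0.95 at the higher peaks and -0.44 at the lower ones, beside -0.01 over all matched peaks. Young naive cells (n = 2) minus the same Tterm libraries had 0.31 at the higher and -0.93 at the lower peaks, beside -0.01, and these groups carry different sequencing labels, so batch and cell state cannot be told apart there. Naive cells exceeded Tterm by more than 1 on the log2 scale at 31.9% of the higher peaks, beside 14.7% over all, and fell short by more than 1 at 48.5% of the lower peaks, beside 22.5%.

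The letters of 14 motifs were counted in the 250 bases before RefSeq starts whose window a peak covers, on both strands. Higher peaks covered 94 such windows and lower peaks 810, and all tested peaks together 12956. AP-1 was searched as TGANTCA, where N is any base, and the TCF/LEF factors as CTTTGAT. RUNX factors were searched as TGTGGT, NFAT as TGGAAA and the orphan receptors NR4A as AAAGGTCA. T-box factors were searched as AGGTGTGA, ETS factors as AGGAAGT, KLF factors as GGGTGTGG and GATA factors as AGATAA. The common E-box was searched as CAGCTG and the E-box bound by ZEB factors as CAGGTG, and IRF, NF-kB and CTCF motifs completed the set. The KLF letters can overlap those of RUNX, and windows of 1 gene can overlap.
The TCF/LEF letters stood in 5 of the 94 windows in higher peaks (5.32%), in 17 of the 810 in lower peaks and in 2.05% of all covered windows. The ZEB E-box stood in 23 of the 94 (24.5%), in 13.3% of those in lower peaks and in 15.6% of all covered. The GATA letters stood in 9 of the 94 (9.57%), in 3.83% and in 4.76%. AP-1 letters stood in 6.38%, 3.58% and 4.14% in the same order. Letters of 3 motifs were less frequent in windows of higher peaks than in all covered windows. These were IRF, in 1.06% of windows in higher peaks, 3.46% of those in lower peaks and 2.45% of all covered, KLF (2.13%, 3.70% and 3.46%) and NF-kB (21.3%, 21.1% and 23.6%). The other 11 were more frequent there. The windows in higher peaks are few, and no test was made. Most called peaks lie away from starts and were not searched, and a match is a run of letters, not a bound site.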

How the data were processed

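ATAC-seq was measured in sorted mouse CD8+ T cells. Per the submitters' processing notes the build was mm10, and the tools included DESeq2 1.28.1, MACS2 2.1.1, Bowtie2 2.2.9, SAMtools 1.3.1 and Picard 2.8.0. The deposited values are a signal, read counts per peak divided by a size factor for each library, as every value of every library was a whole multiple (within 0.02) of what 1 read is worth, so 100% of values came out whole. The authors' counts, recovered in this way, served edgeR (3998 peaks called) and DESeq2 (6243) as alternatives only.

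Of 73610 peaks in the deposited table, 71756 with a mean of 10 or more were tested with limma 3.58.1 (R 4.3.3) on log2(value + 1), with 1 mean for each of 5 groups over 17 libraries, an intensity trend, and Benjamini-Hochberg adjustment over all tested peaks. Tadys has 2 libraries, so the spread was estimated over all groups. Replicates are pools of sorted cells, and p-values measure the spread between pools of a group as 1 estimate over all 17 libraries. That estimate gives the Tadys pools no spread of their own, though they correlated at r = 0.86 and aged Tterm pools at 0.93 to 0.95. A log2 difference on this scale understates the change of low peaks. The same limma fit gave the differences against aged Tprog and those between the young groups.

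Each peak carries the name of the closest protein-coding gene in RefSeq GRCm38.p6 (the assembly of mm10), up to 100000 bp away, which is a label and not a target. It was classed as near a gene end within 1000 bp of a gene's start or end. Depth was 8514962 to 26905264 reads in peaks over the 5 libraries, and more reads give less counting error.

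Named peaks followed a rule: the 10 largest non-overlapping differences (where the group with more signal averaged at least 30) and the 10 lowest adjusted p in each direction, the 3 leading genes of each of 36 lists, and 10 genes always followed. Of 416 listed genes, 395 had a tested peak. Start peaks of Tcf7, Id3, Havcr2, Slamf6, Ifng and p16, and Btla, were added after their values were seen. The comparison, lists and members were chosen with earlier results of these data known. Lists are described by counts beside those of all peaks, with no test. Replicate numbers were not used to pair libraries. The limma and edgeR fits were tested on simulated data with the same spread in every group. That test does not cover Tadys libraries that differ more from each other than those of other groups. Tools also included edgeR 4.0.16, DESeq2 1.42.0, Python 3.11.15 and pandas 2.3.3. Peak sequences were not used here. Results for some listed genes are not reported here.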

Additional observations from a re-analysis of the deposited data

Results flagged for a closer look

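At the Gzmk peak, 1 of the 4 young Tprog libraries stood apart from the others, with 775 normalized reads where the group's median was 684. Chance alone marks about 1 in 20 such groups, and 10 were looked at. The groups of 2 and 3 libraries compared in the report are too small for this check.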

How the results depend on the processing

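Of 132 named peaks, 128 were called as fitted, and none turned round in any of 18 alternatives. Calls of higher and lower peaks in Tadys, 1481 and 3037 as fitted, were 166 and 524 with array weights, 231 and 447 in a fit of the 5 libraries alone and 688 and 1280 in a fit of the 8 aged libraries. DESeq2 called 2579 higher and 3664 lower peaks. The cause was not tested. The smaller fits hold fewer libraries, while the fit with array weights kept all 17 and gave each library its own weight. Leaving out each library in turn gave 564 to 1175 higher and 1149 to 4383 lower peaks. With the replicate number as a block there were 695 higher and 1552 lower. Same-numbered Tadys and Tterm libraries deviated from their group means at r = -0.26 and r = -0.16. With 2 Tadys libraries these deviations mirror each other, so the values cannot show whether the numbers pair libraries. Other pseudocounts, filters, scalings and edgeR kept both counts within 1.5 times. Among the named peaks, 65 lost the call in the 5-library fit, 56 with array weights, 53 without Tadys replicate 1 and 19 without Tadys replicate 2. Depth limits the low end most, since 1 read was worth 2.00 normalized reads in Tadys replicate 1.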
